A study of Homo sapiens with 24 samples.

Results

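The genes described here are 7 regulators and markers of the step at which a germinal centre B cell becomes a plasma cell, namely BCL6, PRDM1, BACH2, XBP1, KLHL6, GCSAM and LMO2. A member was taken from the deposited table when the platform annotation gave its transcript cluster (the set of probes that stands for one transcript locus) that gene symbol alone. Each of the 7 genes had 1 such cluster, among 19460 clusters with 1 symbol and 33297 clusters in all. The cells were of the line L1236, which was established from Hodgkin lymphoma and descends from a B cell, and RNA was measured on 24 Affymetrix Human Gene 1.0 ST arrays. In experiment 1, control siRNA was compared with a double knockdown (KD) by siRNAs against NFKB1 (1 µM for 3 days) and RELA (500 nM for 2 days), which encode p105/p50 and RelA. In experiment 2, control siRNA was compared with a double KD by siRNAs against NFKB2 (500 nM for 2 days) and RELB (1 µM for 3 days), which encode p100/p52 and RelB. All 4 groups, controls included, were passively transfected with Accell siRNA in medium of low serum and harvested 1 day after the return to normal serum. Every group held 6 arrays, made of 2 siRNA sequences in 3 replicates, and the control siRNAs were non-targeting. The model is 1 cell line with a transient and incomplete loss of mRNA, and the KD of NFKB1 or NFKB2 also lowers the precursor proteins p105 or p100. By the labels, the 4 arrays of a replicate each had a different siRNA treatment, and the methods call the 3 replicates biological. The p-values set KD against control within replicates. They measure the spread between siRNA sequences and arrays, together with the variation of the KD effect between replicates. That spread may be partly technical, and the 2 sequences of an arm count as separate observations of each replicate.

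In the germinal centre, BCL6 represses the genes of plasma cell differentiation and of the response to DNA damage, so that B cells can divide and mutate their antibody genes. When a cell leaves, PRDM1 (whose product is BLIMP-1) shuts down the B cell programme, and XBP1 enlarges the secretory machinery that antibody release needs. BACH2 keeps PRDM1 silent until then, and Hodgkin cells, which descend from germinal centre B cells, have lost much of the B cell programme.

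The siRNAs used for the KDs are shown because they define what was removed. The supplementary methods list 2 sequences of 19 bases for each target, without naming their strand, and the order of the list is not tied there to the sequence numbers 1 and 2 of the arrays. They are printed in lower case throughout.
NFKB1 siRNA, upper entry: ccaaaguauaaagauauua
NFKB1 siRNA, lower entry: ggcucauguuuacagcuuu
NFKB2 siRNA, upper entry: ucauugagcagauagucua
NFKB2 siRNA, lower entry: cugucaagaucuguaacua
RELA siRNA, upper entry: cuuccaaguuccuauagaa
RELA siRNA, lower entry: ggauugaggagaaacguaa
RELB siRNA, upper entry: guaggauucggaaaagauu
RELB siRNA, lower entry: uggagaucaucgacgagua

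The bases before the transcription start are shown for BCL6, PRDM1, KLHL6 and GCSAM, the members that passed the test in at least 1 KD, because the KDs removed DNA-binding factors. Windows of 250 bases before and 50 after an annotated start came from RefSeq (GRCh38.p14) for 6 of the 7 members, with 9 windows in all. LMO2 was not among them. Each window was searched on both strands for the κB consensus, the sequence that NF-κB dimers bind, and for TTCNNNGAA, the core that STAT factors bind. Capitals mark the matches that lie wholly before the start.
BCL6 (chr3:187745469-187745718, minus strand): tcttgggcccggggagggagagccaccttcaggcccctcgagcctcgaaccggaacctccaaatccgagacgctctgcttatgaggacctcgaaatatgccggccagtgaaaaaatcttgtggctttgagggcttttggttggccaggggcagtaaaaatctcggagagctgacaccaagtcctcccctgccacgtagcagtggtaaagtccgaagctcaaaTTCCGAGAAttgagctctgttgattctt
PRDM1 (chr6:106086086-106086335, plus strand): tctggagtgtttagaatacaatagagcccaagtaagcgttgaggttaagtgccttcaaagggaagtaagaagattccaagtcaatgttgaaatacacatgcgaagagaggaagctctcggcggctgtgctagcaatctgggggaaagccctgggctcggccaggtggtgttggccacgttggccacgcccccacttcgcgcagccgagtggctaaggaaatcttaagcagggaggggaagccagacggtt
KLHL6 (chr3:183555707-183555956, minus strand): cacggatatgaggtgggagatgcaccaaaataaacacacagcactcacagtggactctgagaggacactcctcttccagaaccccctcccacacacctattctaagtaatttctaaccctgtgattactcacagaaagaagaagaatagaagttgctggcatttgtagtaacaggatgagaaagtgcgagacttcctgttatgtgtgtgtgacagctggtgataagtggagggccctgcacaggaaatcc
GCSAM (chr3:112133249-112133498, minus strand): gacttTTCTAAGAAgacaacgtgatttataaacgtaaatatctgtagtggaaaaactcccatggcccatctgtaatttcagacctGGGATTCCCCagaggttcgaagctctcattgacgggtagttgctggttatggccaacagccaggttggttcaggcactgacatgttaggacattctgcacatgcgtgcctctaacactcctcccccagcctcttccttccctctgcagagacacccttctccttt

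The GCSAM window held the 1 κB match found among the 9 windows, gggattcccc, which begins 165 bases before the start and reads as a match on both strands. Of 35114 windows of the same length over the annotation, 11.3% held a κB match. The GCSAM window also held ttctaagaa, a TTCNNNGAA match that begins 245 bases before the start and does not overlap the κB match. The BCL6 window of the start shown held 4 TTCNNNGAA matches, of which ttccgagaa begins 28 bases before the start and the others overlap the start or follow it. In all, 7.66% of windows held that motif. The windows of PRDM1, KLHL6, BACH2 and XBP1 and the second BCL6 window held neither motif. These matches are descriptions of letters, and nothing about binding was read from them.

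Values are on the log2 scale of RMA, on which a difference of 1 is a doubling of signal. The 2 experiments had array medians of 6.94 to 6.99 and of 7.39 to 7.51, so levels were compared only within an experiment. A cluster was called when its adjusted p (limma, Benjamini-Hochberg over all tested clusters, replicate as a block) was below 0.05 and its difference at least 10%, which is 0.14 on the log2 scale. The targeted genes were lower in their own KD. The log2 difference was -1.92 ± 0.12 (SE) for NFKB1 and -1.39 ± 0.09 for RELA in experiment 1, and -1.34 ± 0.04 for NFKB2 and -0.29 ± 0.05 for RELB in experiment 2. NFKB2 also fell in the p50/RelA KD, at -0.19 ± 0.04 (adjusted p = 0.0422), and NFKB1 rose in the p52/RelB KD, at 0.15 ± 0.04 (adjusted p = 0.0359). In experiment 2 the KD array of sequence 2 in replicate 3 stood apart, with a mean correlation of 0.986 to its own arm against at least 0.993 for every other array of the series. In experiment 1 the lowest correlation, 0.993, and the widest interquartile range, 3.79, belonged to the control array of sequence 2 in replicate 2. Results without these 2 arrays, the outlying array of each experiment, are given where they changed a count or a call. The NFKB2 call in the p50/RelA KD was lost without that control array. In a bulk sample, fewer cells of a type and less RNA per cell cannot be told apart. All 10 Hodgkin cell markers passed the filter on low values. Of the B cell markers typically lost in Hodgkin cells, 7 had a cluster of their own, and 5 passed the filter in each experiment. Control means of these in experiment 1 were 9.28 for CD22, 7.17 for BLK, 7.03 for CD79A, 6.95 for CD79B and 6.40 for VPREB3. MS4A1 and BANK1 had control means of 4.38 and 3.88 in experiment 1 and of 4.84 and 4.78 in experiment 2, below the filter's limit of 6.

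All 7 members passed that filter in both experiments, and their calls are described first for each KD as a whole. After p52/RelB KD, GCSAM, PRDM1 and KLHL6 fell and BCL6 rose, whereas after p50/RelA KD BCL6 alone passed the test, and it rose. In the p52/RelB KD, 4 of 7 members were called where the share over all 17562 tested clusters was 10.0%. By direction, 3 were lower (6.0% of all clusters) and 1 was higher (4.04%). The median difference of the members was -0.11, beside 0.02 over all clusters. In the p50/RelA KD, 1 of 7 was called against 1.14% of 15989 clusters, with 0 lower (0.876%) and 1 higher (0.263%), and the members' median was 0.03 beside 0.00050 over all clusters. At an unadjusted p below 0.05 there were 2 members in experiment 1 and 5 in experiment 2, beside 1683 and 4046 of all clusters. The methods' test without the replicate block called 0 of 7 members in experiment 1, where it called 0.213% of clusters, and 3 of 7 in experiment 2, where it called 4.50%. Once replicate means were removed, that test called 1 and 4 of 7 members, beside 299 of 15989 and 1972 of 17562 clusters.

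**Figure D1:**
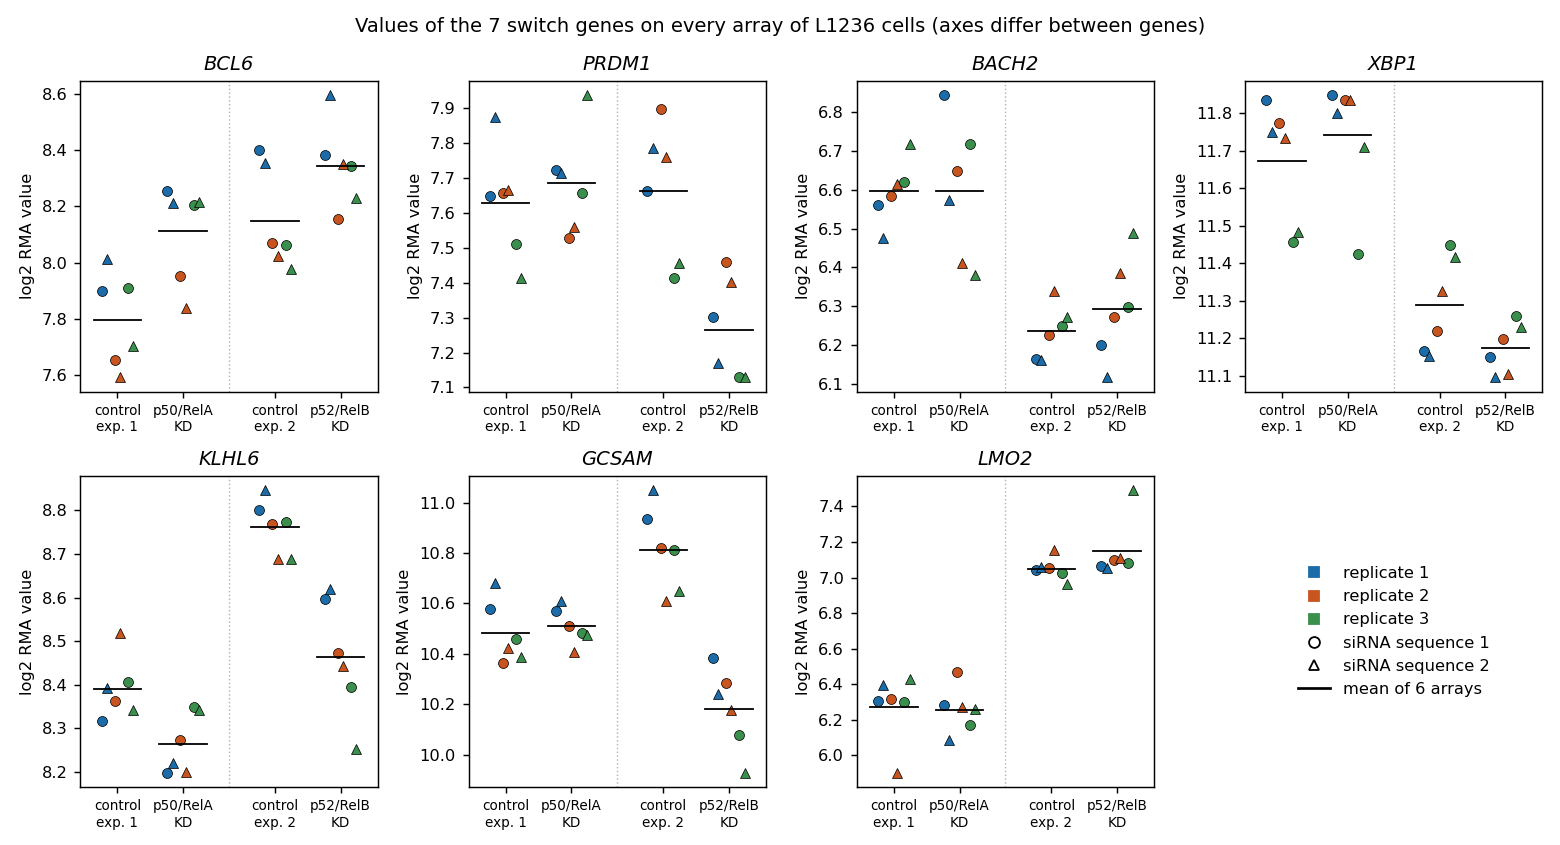
Log2 RMA values (y axis) of each member on all 24 arrays, by group (x axis). Colours stand for replicates, circles and triangles for siRNA sequences 1 and 2 of the arm, and lines for the mean of 6 arrays. Array medians differed between the experiments, so only the groups on the same side of the dotted line compare. The GCSAM and KLHL6 values of the p52/RelB KD all lie below their controls. The share of all clusters whose groups do not overlap was not counted.

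The effects of all members are set side by side in the plot of KD effects.

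**Figure D2:**
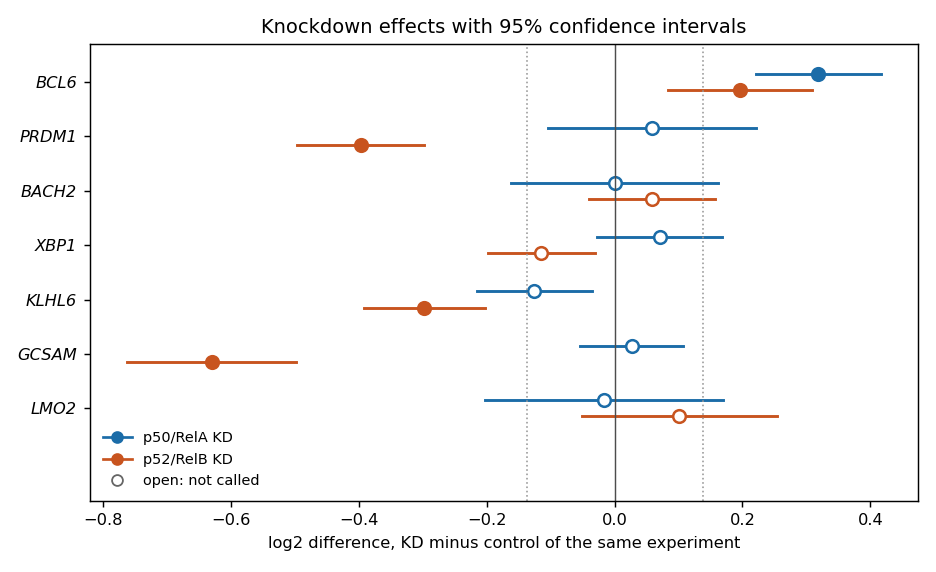
Log2 difference between KD and control of the same experiment (x axis) for each member (y axis), with its 95% confidence interval from limma. Filled points were called, open points were not, and dotted lines mark the minimum difference of 10% in either direction. GCSAM, PRDM1 and KLHL6 lie left of the lower line in the p52/RelB KD, and BCL6 lies right of the upper line in both.

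BCL6, the repressor that holds B cells in the germinal centre state, was higher in both KDs. Control arrays of experiment 1 ran from 7.59 to 8.01 with a median of 7.80, and the p50/RelA KD arrays from 7.84 to 8.26 with a median of 8.21. The groups overlapped, with replicate 2 low in both arms. Of the KD arrays, 4 of 6 exceeded every control array and, within each of the 3 replicates, both KD arrays exceeded both controls. The log2 difference was 0.32 ± 0.05 (SE), a rise of 24.7% (adjusted p = 0.00417). It was 0.28, 0.27 and 0.40 in replicates 1, 2 and 3. In experiment 2 the controls ran from 7.98 to 8.40 with a median of 8.06 and the p52/RelB KD arrays from 8.16 to 8.60 with a median of 8.35. Here 1 of 6 KD arrays exceeded every control array, and both KD arrays exceeded both controls in 2 of 3 replicates. The log2 difference was 0.20 ± 0.05, a rise of 14.6% (adjusted p = 0.0309), with 0.11, 0.21 and 0.27 in replicates 1, 2 and 3. The difference between the KD effects was -0.12 with a 95% interval from -0.27 to 0.02 (adjusted p = 0.398).

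The sign of the BCL6 difference held in every fit that was run, but its call did not. Without replicates 1, 2 and 3 in turn, the adjusted p was 0.0974, 0.0599 and 0.0519 in experiment 1 and 0.0908, 0.207 and 0.0929 in experiment 2, at log2 differences of 0.28 to 0.34 and of 0.16 to 0.24. Over all clusters, 16, 27 and 52 were called in these fits of experiment 1, beside 182 with all arrays. In experiment 2 it was 492, 527 and 2250, beside 1764. Without the replicate block the adjusted p of BCL6 was 0.146 and 0.246, with 68 and 962 clusters called. In experiment 2 the call was also lost with the sequences averaged within a replicate (adjusted p = 0.105), with the scan batch as the block (0.171) and with KD sequence 1 alone (0.0982), and in experiment 1 with KD sequence 1 or 2 alone (0.0646 and 0.179). The clusters called in these fits were 709, 1580 and 2390 in experiment 2, and 30 and 9 in experiment 1. Centring each array on its median, which lowered the median of all clusters in experiment 2 to 0.01, gave 0.18 with an adjusted p of 0.0570.

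PRDM1, the driver of plasma cell differentiation, fell in the p52/RelB KD. Control values there ran from 7.41 to 7.90 with a median of 7.71, and KD values from 7.13 to 7.46 with a median of 7.24. The groups overlapped only through the controls of replicate 3, with 5 of 6 KD arrays below every control, and both KD arrays lay below both controls in each replicate. The log2 difference was -0.40 ± 0.05, so that PRDM1 fell by 24.1% (adjusted p = 0.000186), and it was -0.49, -0.40 and -0.31 by replicate. The controls of experiment 1 ran from 7.41 to 7.88 (median 7.65) and the p50/RelA KD arrays from 7.53 to 7.94 (median 7.69). The difference there was 0.06 ± 0.08 with a 95% interval from -0.10 to 0.22 (adjusted p = 0.890). Its replicates went different ways, at -0.04, -0.12 and 0.34, and the highest KD array was sequence 2 in replicate 3. The KD effects differed by -0.46 ± 0.09 (adjusted p = 0.00564), and PRDM1 was 1 of 2 members called in that comparison, against 4.61% of 15962 clusters. That call was lost without replicate 1 (adjusted p = 0.0839) and without the replicate block (0.0536).

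BACH2, the repressor that keeps PRDM1 silent in B cells, was not called in either KD. Experiment 1 had controls from 6.48 to 6.72 (a median of 6.6) and the KD arrays from 6.38 to 6.84 (median 6.61). The mean difference was near 0, with a 95% interval from -0.16 to 0.16 (adjusted p = 1.0), while the KD arrays spread more widely, with an SD of 0.179 against 0.0796 in the controls. KD sequence 1 exceeded KD sequence 2 in each of the 3 replicates. Against the mean of both controls the difference was 0.14 ± 0.07 for sequence 1 and -0.14 ± 0.07 for sequence 2. The contrast between the sequences was 0.28 ± 0.08 and did not pass the test (adjusted p = 0.999). In experiment 2 the controls ran from 6.16 to 6.34 (median 6.24) and the p52/RelB KD arrays from 6.12 to 6.49 (median 6.29), with a difference of 0.06 ± 0.05 (adjusted p = 0.484).

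XBP1, which enlarges the endoplasmic reticulum of secreting cells, was not called in either KD. Experiment 1 had controls from 11.46 to 11.84 (median 11.74) and the KD arrays from 11.43 to 11.85 (median 11.82). Replicate 3 was low in both arms, and the difference was 0.07 ± 0.05 (adjusted p = 0.682). In experiment 2 the controls ran from 11.15 to 11.45 (median 11.27) and the KD arrays from 11.09 to 11.26 (median 11.17). In each replicate both KD arrays lay below both controls, at -0.04, -0.12 and -0.19, although 3 of 6 KD arrays were within the range of all controls. The difference was -0.11 ± 0.04 with a 95% interval from -0.20 to -0.03, and it did not pass the test (adjusted p = 0.0835). The contrast between the KD effects was -0.19 ± 0.06 (adjusted p = 0.0745).

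KLHL6, an adaptor of the cullin-3 ubiquitin ligase that B cells need to form germinal centres, fell in the p52/RelB KD. Its controls ran from 8.69 to 8.85 with a median of 8.77, and its KD arrays from 8.25 to 8.62 with a median of 8.46. The groups did not overlap, and how many of all clusters had such groups was not counted. The log2 difference was -0.30 ± 0.04, so that KLHL6 fell by 18.6% (adjusted p = 0.000987), with -0.21, -0.27 and -0.41 by replicate. In experiment 1 the controls ran from 8.32 to 8.52 (median 8.38) and the p50/RelA KD arrays from 8.20 to 8.35 (median 8.25). There 4 of 6 KD arrays lay below every control, the difference was -0.13 ± 0.04 with a 95% interval from -0.22 to -0.04, and the test was not passed (adjusted p = 0.233). The KD effects differed by -0.17 ± 0.06 (adjusted p = 0.106). Without the outlying array of each experiment, that contrast was -0.17 with an adjusted p of 0.0300.

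GCSAM, a signalling adaptor of germinal centre B cells that bears on their migration, showed the largest difference of the 7 members in either KD. In experiment 2 its controls ran from 10.61 to 11.05 with a median of 10.82, and the p52/RelB KD arrays from 9.93 to 10.38 with a median of 10.21. The groups did not overlap, and how many of all clusters had such groups was not counted. The log2 difference was -0.63 ± 0.06, so that GCSAM fell by 35.4% (adjusted p = 6.08e-05). By replicate it was -0.68, -0.48 and -0.73. In experiment 1 the controls ran from 10.36 to 10.68 (median 10.44) and the KD arrays from 10.41 to 10.61 (median 10.50), inside the range of the controls. The difference there was 0.03 ± 0.04 (adjusted p = 0.901), and its 95% interval from -0.05 to 0.11 did not reach the minimum of 0.14 in either direction. The KD effects differed by -0.66 ± 0.07 (adjusted p = 6.27e-06). The κB match printed above lies in the window of this gene. Over all windows 11.3% held such a match, and the windows of PRDM1 and KLHL6 held none. Whether the match has a part in the fall was not tested.

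LMO2, a LIM-domain scaffold protein used as a germinal centre marker, was not called in either KD, and 1 array in each experiment lay far from the rest of its arm. In experiment 1 the controls ran from 5.90 to 6.43 (median 6.31) and the KD arrays from 6.09 to 6.47 (median 6.27). The lowest control was the outlying array, sequence 2 in replicate 2, which gave replicate 2 a difference of 0.26 while replicates 1 and 3 had -0.17 and -0.15. The mean difference was -0.02 ± 0.09 with all arrays (adjusted p = 0.981) and -0.10 without that control (adjusted p = 0.507). In experiment 2 the controls ran from 6.97 to 7.16 (median 7.05) and the KD arrays from 7.05 to 7.49 (median 7.09), and the highest of them was the outlying array of that experiment. The difference was 0.10 ± 0.07 with all arrays (adjusted p = 0.427) and 0.03 ± 0.03 without that one (adjusted p = 0.622).

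The called members had the same sign with either siRNA sequence. Against the mean of both control sequences, GCSAM was -0.56 ± 0.07 with p52/RelB KD sequence 1 and -0.70 ± 0.07 with sequence 2. PRDM1 was -0.37 ± 0.06 and -0.43 ± 0.06, and KLHL6 was -0.27 ± 0.06 and -0.32 ± 0.06. These 3 genes were also called with either sequence alone, where 2390 (sequence 1) and 1007 (sequence 2) of 17562 clusters were called. BCL6 was 0.15 ± 0.06 and 0.24 ± 0.06 in that KD and 0.34 ± 0.06 and 0.29 ± 0.06 in the p50/RelA KD. The limma contrast of KD sequence 1 with KD sequence 2 called 0 of 7 members and 0% of clusters in each experiment, with 1 member (BACH2 in experiment 1) at an unadjusted p below 0.05 in experiment 1 and 0 in experiment 2. Over all clusters, 562 and 1673 were at an unadjusted p below 0.05. Whether the KD effect differed between replicates was tested by a limma F test, which called 0 of 7 members in each experiment, against 0% of clusters in experiment 1 and 0.00569% in experiment 2. At an unadjusted p below 0.05 there was 1 member in experiment 1, PRDM1, and there were 0 in experiment 2, beside 882 and 785 of all clusters.

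**Figure D3:**
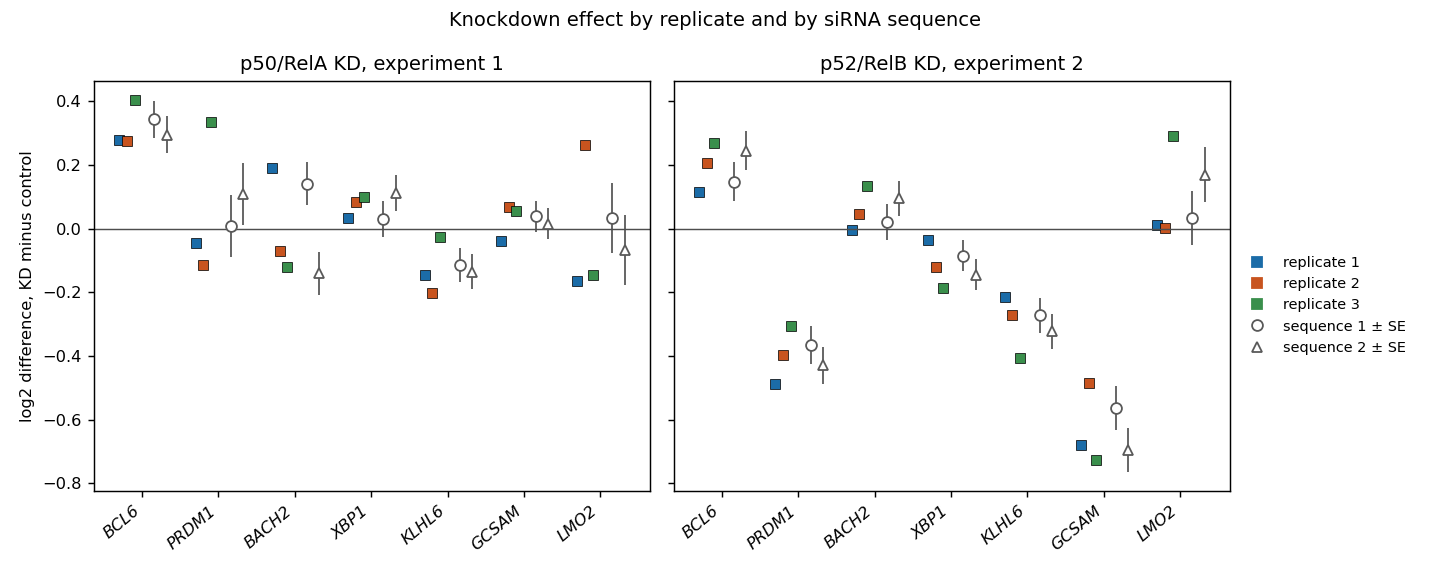
Log2 difference between KD and control (y axis) of each member (x axis) in experiments 1 and 2. Squares give the difference of means within a replicate, and circles and triangles give KD sequence 1 and 2 against both controls, with SE. GCSAM, PRDM1 and KLHL6 lie below 0 in every replicate and with either sequence in the p52/RelB KD, whereas PRDM1 in the p50/RelA KD has 1 replicate at 0.34 and the others below 0.

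The genes around the members were read from lists of the same programme. Every count from a list with all arrays stands beside the share called over all tested clusters, 1.14% in the p50/RelA KD and 10.0% in the p52/RelB KD. Without the outlying array of each experiment, 218 of 15989 and 2526 of 17562 clusters were called, where it was 182 and 1764 with all arrays. For the methods' test on the deposited values those shares were 0.213% and 4.50%. Once replicate means were removed, it called 299 of 15989 and 1972 of 17562 clusters. The methods' own test used values adjusted for covariates. Where that test is named below without removal of replicate means, it was run on the deposited values. Of the other germinal centre genes, 1 of 13 tested passed in the p50/RelA KD and 5 of 15 in the p52/RelB KD, 3 lower and 2 higher, with medians of 0.01 and -0.03. The methods' test called 0 and 3 of them, or 1 and 5 once replicate means were removed. CXCR5, the chemokine receptor that brings B cells into follicles, fell by 0.38 ± 0.04 (adjusted p = 0.000879) and by 0.51 ± 0.06 (adjusted p = 0.000192) on the log2 scale. In the p52/RelB KD, CXCR4, the receptor of dark zone cells, was -0.40 ± 0.07 (adjusted p = 0.00239), and RGS13, which dampens chemokine receptor signals, was -0.41 ± 0.10 (adjusted p = 0.0266). IRAG2 was 0.26 ± 0.05 (adjusted p = 0.00568), and PAX5, which maintains B cell identity, was 0.19 ± 0.04 (adjusted p = 0.00627).

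Of 17 plasma cell genes tested, limma called 0 in the p50/RelA KD, with 4 at an unadjusted p below 0.05 and 0 by the methods' test. After p52/RelB KD, 4 were lower (6.0% of all clusters) and 1 higher (4.04%), with a median of -0.10. The methods' test called 4, or 5 once replicate means were removed. Without the outlying array of that experiment 5 were lower and 1 higher, the gained gene being MZB1, named after its value was seen. Calls over all 17562 clusters then rose from 1764 to 2526. TNFRSF17, the BCMA receptor that plasma cells need to survive, was -0.53 ± 0.10 (adjusted p = 0.00419). SEC11C, a subunit of the signal peptidase, was -0.36 ± 0.08 (adjusted p = 0.00935). CAV1, a membrane scaffold protein, was -0.34 ± 0.06 (adjusted p = 0.00225), and PIM2, a survival kinase, was -0.28 ± 0.05 (adjusted p = 0.00226). CD27, a receptor of memory B cells and plasma cells, went the other way at 0.42 ± 0.05 (adjusted p = 0.000238). Of 18 secretory pathway targets of XBP1, limma called 0 in the p50/RelA KD (3 at an unadjusted p below 0.05, and 0 by the methods' test or 1 once replicate means were removed). After p52/RelB KD it called 3, all lower (6.0% of all clusters), and the methods' test called 3. HERPUD1, which serves the degradation of misfolded proteins, was -0.32 ± 0.05 (adjusted p = 0.00134), SEC23B, a coat protein of vesicles, -0.23 ± 0.04 (adjusted p = 0.00226), and HYOU1, a chaperone, -0.18 ± 0.04 (adjusted p = 0.00839). Without the outlying array, 1 XBP1 target, SDF2L1, was also called higher and the list's median turned from -0.03 to 0.01.

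Among targets that BCL6 is known to repress, 3 of 16 were called in the p50/RelA KD, all lower, where 1.14% of all clusters were called. In the p52/RelB KD it was 8 of 15 targets, 6 lower and 2 higher, where the share of all clusters was 10.0%. The methods' test called 1 and 2 of these targets, or 4 and 8 once replicate means were removed. The medians were -0.09 and -0.06. CDKN1A, the inhibitor of cell division, was -0.33 ± 0.04 (adjusted p = 0.000664) and -0.27 ± 0.05 (adjusted p = 0.00672), and BCL2L1, which protects from apoptosis, was -0.29 ± 0.05 (adjusted p = 0.0147) and -0.42 ± 0.08 (adjusted p = 0.00438). CXCL10, a chemokine, was -0.32 ± 0.06 (adjusted p = 0.00503) and BCL2 -0.16 ± 0.03 (adjusted p = 0.0117) in the p52/RelB KD. Both higher genes were called there, namely the chemokine CCL3 at 0.58 ± 0.08 (adjusted p = 0.000467), whose probes may also read its near-identical copies, and the adhesion receptor CD44 at 0.22 ± 0.04 (adjusted p = 0.00230). Several of these genes, among them BCL2L1 and CXCL10, are also textbook NF-κB targets, and what moved the genes of this list was not tested. Without the outlying array of each experiment, the counts were 2 lower and 1 higher in the p50/RelA KD and 6 lower and 3 higher in the p52/RelB KD. Over all clusters, 218 of 15989 and 2526 of 17562 were then called. The gained genes were GPR183 and ID2, and the lost one was CD80, all named after their values were seen.

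Of 7 tested targets that BLIMP-1 represses, limma called 0 in the p50/RelA KD (1 at an unadjusted p below 0.05, and 0 by the methods' test). After p52/RelB KD it called 3, beside 10.0% of all clusters. The methods' test called 1, or 3 once replicate means were removed. PAX5, given above, and ID3, an inhibitor of E proteins, were higher, ID3 at 0.22 ± 0.05 (adjusted p = 0.0159). The B cell receptor CD22 was lower at -0.30 ± 0.07 (adjusted p = 0.0225). The median of the list was -0.05.

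Of 17 regulators that act upstream of BCL6 and PRDM1, 4 were lower (0.876% of all clusters) and 0 higher (0.263%) in the p50/RelA KD. In the p52/RelB KD, 3 were lower (6.0%) and 3 higher (4.04%). The medians were -0.02 and -0.04. The methods' test called 0 and 4 of the regulators, or 4 and 6 once replicate means were removed. STAT5A, a signal transducer that acts on BCL6, was -0.29 ± 0.05 (adjusted p = 0.0146) and -0.46 ± 0.05 (adjusted p = 0.000101). CD40, the receptor through which T cells signal to germinal centre B cells, was -0.19 ± 0.04 (adjusted p = 0.0246) and -0.29 ± 0.04 (adjusted p = 0.000774). STAT5B was -0.18 ± 0.04 (adjusted p = 0.0196) in the p52/RelB KD, where the interleukin receptor IL4R was 0.24 ± 0.04 (adjusted p = 0.000997) and the AP-1 subunit FOS 0.30 ± 0.06 (adjusted p = 0.00755). JUN, the partner of FOS, was -0.27 ± 0.05 (adjusted p = 0.0233) in the p50/RelA KD. Without the outlying array of each experiment, 3 regulators were lower in the p50/RelA KD, and 3 were lower and 2 higher in the p52/RelB KD. Over all clusters, 218 of 15989 and 2526 of 17562 were then called. The calls lost were IL21R and BATF, named after their values were seen, as was SDF2L1 above.

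Of 17 corepressors and partners of the members, limma called 0 in the p50/RelA KD (1 at an unadjusted p below 0.05, and 0 by the methods' test). After p52/RelB KD it called 1, beside 10.0% of all clusters, and the methods' test called 1. The limma call was TCF3, an E protein of germinal centre B cells that partners LMO2 complexes, at -0.23 ± 0.04 (adjusted p = 0.00413). The median differences of these genes were 0.02 and -0.01.

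**Figure D4:**
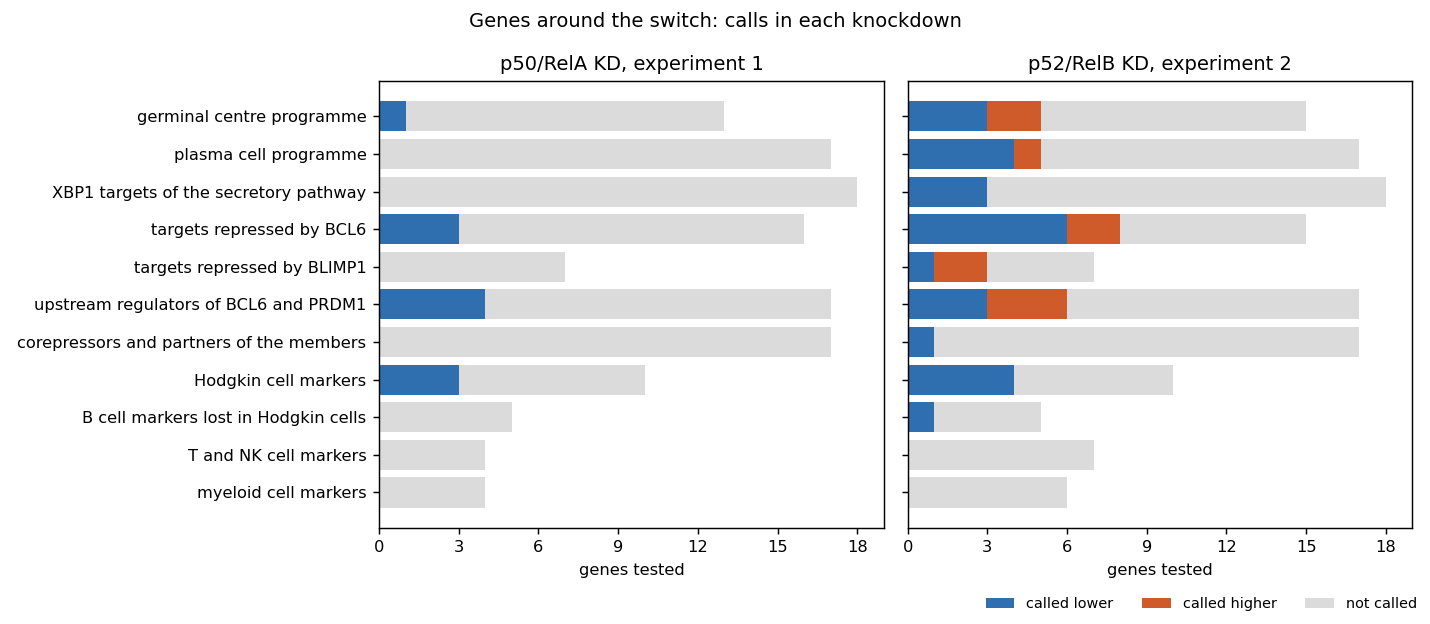
Number of genes tested (x axis) in each list around the switch (y axis), split into genes called lower, called higher and not called, for the p50/RelA KD and the p52/RelB KD. The targets repressed by BCL6 hold 3 calls in the p50/RelA KD and 8 in the p52/RelB KD, and the plasma cell programme holds 0 and 5. Over all tested clusters, 1.14% and 10.0% were called.

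Among the Hodgkin cell markers, 3 of 10 fell in the p50/RelA KD and 4 of 10 in the p52/RelB KD, and 6 of 10 in the latter without its outlying array. With all arrays, 0.876% and 6.0% of all clusters were called lower. In the p52/RelB KD, calls in either direction rose from 1764 to 2526 of 17562 clusters without that array. The methods' test called 3 and 2, or 3 and 5 once replicate means were removed. The chemokine CCL22 was -0.75 ± 0.05 (adjusted p = 4.84e-06) and -0.86 ± 0.09 (adjusted p = 7.45e-05), and EBI3, a cytokine subunit, -0.48 ± 0.04 (adjusted p = 2.37e-05) and -0.21 ± 0.06 (adjusted p = 0.0349). The chemokine CCL17 was -0.44 ± 0.04 (adjusted p = 0.000262) in the p50/RelA KD, and in the p52/RelB KD the transcription factor GATA3 was -0.22 ± 0.04 (adjusted p = 0.00412) and the adaptor TRAF1 -0.23 ± 0.06 (adjusted p = 0.0320). Limma called 0 of 5 tested B cell markers in the p50/RelA KD, with 0 at an unadjusted p below 0.05 and 0 by the methods' test, and 1 of 5 in the p52/RelB KD, which was CD22 and was not called by the methods' test. Once replicate means were removed, that test called 1 of the 5 in the p52/RelB KD. Limma called 0 of 4 and 0 of 7 T and NK cell markers and 0 of 4 and 0 of 6 myeloid markers in experiments 1 and 2. In experiment 1, 0 of either list were at an unadjusted p below 0.05. In experiment 2, each list had 1, and the methods' test called 0 of each, or 1 of each once replicate means were removed. Without the outlying array, 1 myeloid marker, ITGAM, was called higher in the p52/RelB KD, a gene named after its value was seen. The mean of the 10 T and NK cell markers lay between 6.52 and 6.58 in the controls of experiment 2 and between 6.48 and 6.88 in the KD arrays, and that of the 10 myeloid markers between 6.32 and 6.45 and between 6.33 and 6.67. Their part in the members' differences was not tested.

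The clusters whose pattern was most like that of a called member were ranked by Pearson's r over the 24 arrays, after the mean of each replicate of each experiment had been removed, among 14646 named clusters. The values share the same arrays and still hold the KD differences, so KD differences like those of the member follow from the ranking. They are given as a description. GCSAM was most like PAMR1 (r = 0.974), ABCA13 (0.955) and MTUS1 (0.954), which in the p52/RelB KD differed by -0.76, -0.33 and -0.50 on the log2 scale and in the p50/RelA KD by 0.06, 0.05 and 0.02. KLHL6 was most like CXCR4 (r = 0.962), CCP110 (0.953) and TRIM8 (0.951), which were below 0 in both KDs, at -0.17, -0.13 and -0.23 after p50/RelA KD and at -0.40, -0.41 and -0.68 after p52/RelB KD. PRDM1 was most like VEGFA (r = 0.933), RNASE1 (0.929) and CACNA1D (0.929), which differed by -0.39, -0.80 and -0.21 after p52/RelB KD and by -0.04, -0.01 and 0.08 after p50/RelA KD. BCL6 was most like SMIM14 (r = 0.842), PERP (0.836) and DDB2 (0.835). These were above 0 in both KDs, SMIM14 at 0.18 and 0.15, PERP at 0.13 and 0.14, and DDB2, which recognizes DNA damage, at 0.22 (adjusted p = 0.0181) and 0.38 (adjusted p = 0.000124).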

How the data were processed

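The authors deposited log2 values that RMA had made from the array intensities, with background correction, quantile normalization and a summary of the probes of each transcript cluster. The sources used here do not give the RMA version. Of 33297 clusters, all without missing values, 19460 had 1 symbol and 1754 several in GEO's annotation of the platform, and symbols were updated through NCBI gene identifiers (GRCh38.p14). Arrays have no read depth, so precision is limited by their number.

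Each KD was compared with the control of its own experiment by limma 3.58.1 in R 4.3.3, on clusters with a symbol that were below 6 in fewer than 50% of the 12 arrays, with both siRNA sequences pooled. The KD effects were compared in 1 fit over 24 arrays that blocked on replicate within experiment. All tests were two-sided. Differences are KD minus control, ± the standard error (SE). The methods name a 2-sample test on values adjusted for covariates that they do not name, and that test was run as an alternative with and without removal of the replicate means. Same-numbered arrays are one biological replicate per the methods, and the deviations of control and KD means from their group means had correlations of 0.448, 0.193 and 0.252 (experiment 1) and of 0.576, 0.272 and 0.380 (experiment 2), so the replicate was a block.

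The 7 members, the lists and the tests were chosen with earlier results of these data known. Named genes were all members and, from each other list, at most 6 called genes with the smallest adjusted p. Some genes of the lists are not reported here. Alternatives were other filters, normalizations, array weights, blocks and single sequences, and each replicate or outlying array left out. Promoter windows and siRNA sequences were copied from RefSeq and from the supplementary methods.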

Additional observations from a re-analysis of the deposited data

Results flagged for a closer look

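The KD effects on GCSAM and PRDM1 differed between the experiments in the limma contrast of effects, by -0.66 (adjusted p = 6.27e-06) and by -0.46 (adjusted p = 0.00564) on the log2 scale. GCSAM was -0.63 in the p52/RelB KD and 0.03 in the p50/RelA KD, and PRDM1 was -0.40 and 0.06. The experiments were separate, so the siRNA targets and the experiment cannot be told apart in this contrast.

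In 3 of 28 sets of 6 arrays, 1 array lay far from the rest. Chance alone gives about 1 in 20 such sets if the arrays of a set are interchangeable, whereas these came from 3 replicates. For LMO2 in the p52/RelB KD, sequence 2 of replicate 3 was 7.49 and the next array 7.11, a gap of 0.869 of the group's range, on the array with the lowest correlation to its arm. For LMO2 in the controls of experiment 1, sequence 2 of replicate 2 was 5.90 and the next array 6.30, a gap of 0.756 of the range. For XBP1 in the p50/RelA KD, sequence 1 of replicate 3 was 11.43 and the next array 11.71, a gap of 0.671 of the range. The next array was sequence 2 of the same replicate, and the controls of that replicate were 11.46 and 11.48.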

How the results depend on the processing

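In the p52/RelB KD, GCSAM, PRDM1 and KLHL6 were called under all 17 alternatives, at log2 differences of -0.70 to -0.56, -0.44 to -0.35 and -0.34 to -0.24, and the count of members called was 3 or 4. BCL6 kept its sign under all 17 in each KD. Its call held under 10 in the p50/RelA KD, where the scan batches were the replicates, so the scan batch as block repeated the main fit. In the p52/RelB KD, where replicate 3 was scanned apart from the other replicates, the call held under 8. It was lost there among others with the sequences averaged within a replicate, with the scan batch as block and after median centring. The count of members called in the p50/RelA KD was 0 instead of 1 with no replicate block, with KD sequence 1 or KD sequence 2 alone and with the methods' test on the deposited values, and it ran from 0 to 1 when a replicate or array was left out. In the contrast of KD effects the count was 1 instead of 2 with no replicate block and ran from 1 to 3 when replicates or arrays were left out, with KLHL6 also called under array weights (adjusted p = 0.0466). Apart from BCL6 in both KDs and PRDM1 in the contrast of effects, the replicate block changed no call of a member. Members with differences near 0 changed sign in the p50/RelA KD. BACH2 was 0.0030 after a further quantile normalization, 0.0072 after centring on the array median, 0.011 with array weights, 0.14 with KD sequence 1 alone, 0.013 with 1 control array (sequence 2, replicate 2) removed, and -0.095 to 0.060 when replicates were left out. LMO2 was 0.033 with KD sequence 1 alone and -0.16 to 0.057 with a replicate left out, and PRDM1 -0.080 to 0.15. In the contrast of effects BACH2 ran from -0.039 to 0.18 and LMO2 from -0.042 to 0.31 with replicates left out. In the contrast of KD sequences in experiment 1, XBP1 ran from -0.14 to 0.024, KLHL6 from -0.0072 to 0.041 and GCSAM from -0.017 to 0.055. The causes were not tested. Over all clusters, calls ran from 9 to 370 around 182 in the p50/RelA KD, from 492 to 2526 around 1764 in the p52/RelB KD and from 193 to 1269 around 736 in the contrast, so the shares called move with the setting. With 6 arrays an arm and no detection call on the arrays, low values such as those of LMO2 in experiment 1 are the least certain.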
